A study of Mus musculus with 14 samples.

Results

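The comparison described here set the heaviest fraction of a polysome gradient against the medium-heavy fraction before it, at single mRNA 3' ends of 3T3 cells, a mouse fibroblast line. A 3' end, or poly(A) site, is the position at which an mRNA is cleaved and its poly(A) tail is added. Ends with at least 100 reads over the pair of fractions were kept, which gave 13256 of the 33590 listed ends (39.5%). They held 98.2% of the reads of either fraction. Of these ends, 13100 passed the authors' own read filter and 156 did not.

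Sucrose gradients separate mRNAs by the number of ribosomes they carry, because each bound ribosome adds mass and the mRNA sediments further. Free mRNA stays near the top, mRNA with a single ribosome (the monosome) lies below it, and mRNAs covered by many ribosomes, the polysomes, go deepest. How many ribosomes an mRNA holds depends on how often translation starts on it, how fast ribosomes move and how long its coding sequence is, so a long coding sequence has room for more ribosomes at the same density. Many genes make mRNAs that share a coding sequence and differ in where the 3' untranslated region ends, and the study asked how that choice goes with stability and translation.

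All libraries were made by 2P-Seq, which sequences poly(A)-selected RNA from its tail and so counts reads per 3' end. The gradient gave 6 libraries, 1 per fraction, from 3T3 cells with no drug named in their labels. The authors' deposited table names the fractions by 0, 1, 2.5, 4.5, 7.5 and 12 ribosomes per mRNA, called their load here. The labels number them 1 to 6, and they were matched to the loads in ascending order, which is an assumption. The load 7.5 library held 10420511 reads and the load 12 library 11575417. Abundance came from 2 control libraries of 3T3 cells, and stability from those and from 4 libraries of 3T3 cells after 1, 2, 4 or 8 h of actinomycin D at 10 µg/ml, which stops transcription so that existing mRNA decays. The ends carry mm9 positions and no gene names, and no mm9 annotation was used here, so ends are given by position, without gene, exon or UTR, and the fibroblast identity was not checked against markers.

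For each end the reads were divided by the factor in the file header (1 for load 7.5, 0.852 for load 12), and the ratio is the log2 of load 12 over load 7.5 with 0.5 reads added. The typical end was somewhat higher in the heaviest fraction, with a median log2 ratio of 0.28 (1.21-fold), and 7769 ends (58.6%) lay above 0. That level depends on the factors: with library totals the median was -0.11, a shift of 0.38. Ends are therefore compared with the median end, which no scaling changes. Each fraction is 1 library, so no test between the fractions is possible, and the exact 95% intervals given cover counting error only, since reads made by PCR are not independent molecules. A ratio of bulk libraries also cannot tell a change in all cells from a change in some of them.

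The ends were spread widely between these fractions, with a long tail towards the heaviest. Relative to the median end, 3642 ends were at least 2-fold higher in the load 12 fraction (27.5% of all ends compared) and 1918 at least 2-fold lower (14.5%). Beyond 4-fold there were 1215 higher ends and 10 lower ones, and beyond 8-fold 96 and 0. The middle 50% of ratios lay between -0.42 and 1.40, and the full range was -2.09 to 4.25.

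The same ends differed less between the controls, the only libraries of 1 group. Over 10701 ends with at least 100 control reads, the log2 ratio of control 2 to control 1 had an SD of 0.46, against 1.18 for load 12 over load 7.5, although the controls had fewer reads (5843403 and 6433503). Of those ends, 2.92% were at least 2-fold above the median of the controls' ratio and 1.01% at least 2-fold below it. Counting error was small beside the spread: over all 13256 ends the 95% interval of the ratio reached a median of 0.28 to either side. Of these ends, it lay wholly beyond 2-fold from the median end for 2814 higher and 937 lower. For 2189 ends (16.5%) it included the median end. Just inside the read minimum, 38 ends with 100 reads had a median ratio of 0.55 (range -1.12 to 3.19), and just outside it 52 ends with 99 reads had 0.49 (-1.55 to 3.04).

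**Figure D1:**
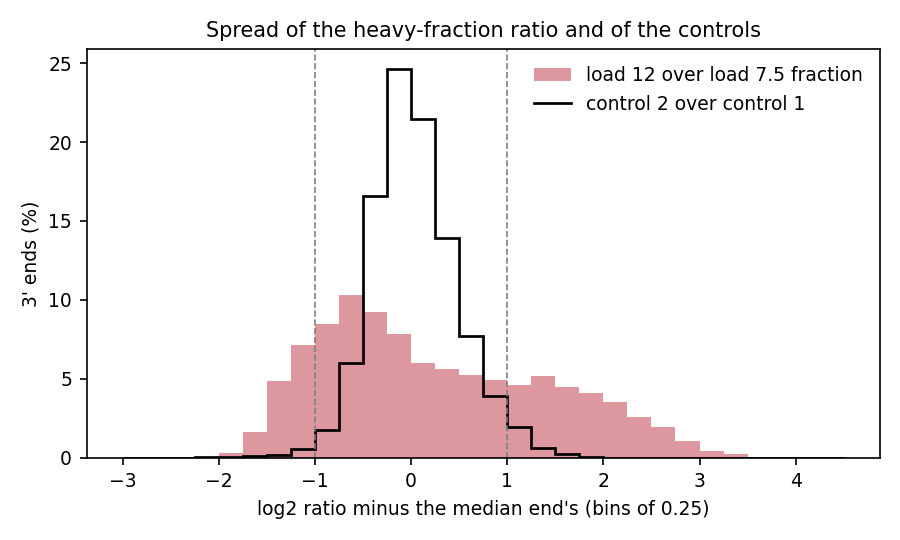
Distribution of the log2 ratio of the load 12 to the load 7.5 fraction (filled) and of control 2 to control 1 (line), each minus its median end, over the 10701 ends with at least 100 control reads; x axis, log2 ratio in bins of 0.25; y axis, percent of ends; dashed lines mark 2-fold. The filled distribution peaks left of its median, between -0.75 and -0.5 (10.3% of ends), and extends past 3 to the right, whereas the controls stay mostly within 2-fold.

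The distribution was lopsided. Its fullest bin lay between -0.75 and -0.5 below the median end and held 10.3% of ends, and its right side was a plateau, with 4.64% to 5.65% of ends in each bin of 0.25 between 0.25 and 1.5. The ends at least 2-fold higher supplied 40.4% of the compared reads in the load 12 library and 12.6% in the load 7.5 library. The ends at least 2-fold lower supplied 11.4% and 29.9%. The ratio placed ends in these classes, so these shares describe them and test nothing.

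Of 8628 ends with at least 300 reads, the interval lay wholly beyond 2-fold from the median end for 2034 higher ends and 822 lower ones. The 10 of these with the highest ratios held between 63.5% and 77.8% of their scaled gradient reads in the load 12 fraction (47.1% to 67.9% with library totals). The steepest was an end on chromosome 2 (minus strand, 145743996), with 44 reads in the load 7.5 fraction and 691 in the load 12 fraction. Its log2 ratio was 4.19 (95% interval 3.76 to 4.68), 15.1-fold above the median end. It is a middle end of a locus with 4 listed ends, a locus being ends on the same strand with each within 2000 nt of the next. An end on chromosome 1 (plus strand, 182531129) went from 122 to 1721 reads (log2 ratio 4.04, 3.78 to 4.33). Another on that chromosome (minus strand, 20793049) went from 167 to 2284 reads (4.00, 3.78 to 4.24).

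The deepest read of the 10 was an end on chromosome 7 (plus strand, 135125542). It held 1891 reads in the load 7.5 fraction and 24439 in the load 12 fraction, a log2 ratio of 3.92 (3.86 to 3.99). Its scaled reads over the loads 0, 1, 2.5, 4.5, 7.5 and 12 were 1363, 2461, 2938, 1231, 1891 and 28682. By library totals the same reads were 406, 434, 234, 111, 181 and 2111 CPM (reads per 1000000 reads of a library). Load 4.5 was the lowest and load 12 by far the highest on both scales, whereas the order of loads 0, 1 and 2.5 depended on the scale. The end had 782 and 840 CPM in the controls and 998 CPM after 8 h of actinomycin D.

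Chosen for their high ratios, all 10 of these ends peaked at load 12, and each held 3.98% to 5.92% of its reads at load 7.5. An end on the X chromosome (minus strand, 91780814), the single listed end of its locus, went from 535 to 7384 scaled reads (3.79, 3.66 to 3.92) and held 7.04% of its reads at load 0, above its 4.95% at load 7.5. On chromosome 7 (minus strand), 16535266 and 16534334 are ends of a shared locus, with log2 ratios of 3.70 and 3.73, so the 10 ends stand for 9 loci. An end on chromosome 2 (plus strand, 121263714; log2 ratio 3.78) had 88.8 and 110 CPM in the controls and 121, 497, 288 and 373 CPM after 1, 2, 4 and 8 h of actinomycin D, without an even course. CPM is relative to each library, so a value can be higher after the drug without more mRNA. The end on chromosome 2 at 145743996 had 39.2 and 56.1 CPM in the controls and 15.1 CPM at 8 h. Half-lives of the 10 ranged from 2.51 to 29.1 h in the authors' deposited table.

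At the other extreme, the 10 lowest ends had less at load 12 than at load 7.5. The lowest was an end on chromosome 15 (minus strand, 25293039), with 9904 reads at load 7.5 and 2536 at load 12. Its log2 ratio was -1.73 (-1.80 to -1.67), 4.03-fold below the median end. Its scaled reads were 345, 319, 1443, 5745, 9904 and 2976 from load 0 to load 12, highest at load 7.5. A second end of that locus, at 25293145, had 797 and 210 reads (-1.69, -1.92 to -1.47), so these 10 ends also stand for 9 loci. The pair of ends differed after actinomycin D: 25293039 had 174 and 204 CPM in the controls and 154 CPM at 8 h, and 25293145 had 28.2 and 20.2 CPM and 88.7 CPM.

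Among the others, an end on chromosome 4 (minus strand, 49526838) had 1497 and 413 reads (-1.63, -1.79 to -1.47). It had 83.7 and 83.9 CPM in the controls and 5.19 CPM after 8 h. An end on chromosome 1 (plus strand, 157419416), single in its locus, had 1504 and 416 reads (-1.62, -1.78 to -1.47). An end on chromosome 8 (plus strand, 59993232) held 54.2% of its scaled reads at load 7.5 and 17.4% at load 12, with 282 and 77 reads (-1.64, -2.02 to -1.27). Of the 10 lowest ends, 9 peaked at load 7.5, with header factors and with library totals. The exception, on chromosome 16 (plus strand, 44161890), peaked at load 4.5, with 39.0% of its scaled reads there and 33.3% at load 7.5. These ends were less abundant than the 10 highest, with a median of 11 CPM against 117 CPM in the controls.

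**Figure D2:**
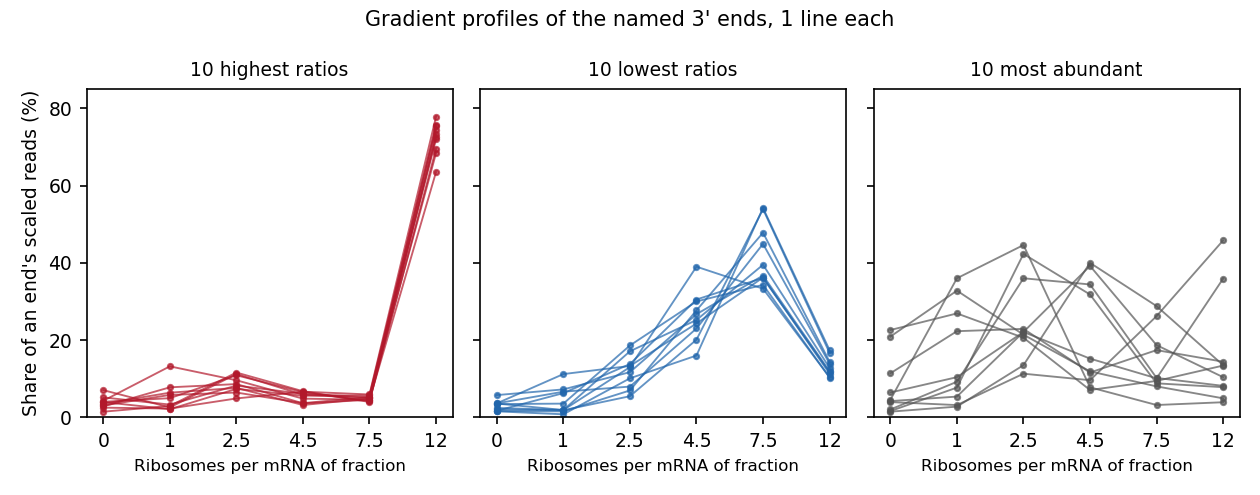
Share of each named end's gradient reads scaled by the header factors (y axis, percent) in each of the 6 fractions (x axis, ribosomes per mRNA), 1 line per end, for the 10 highest ratios, the 10 lowest ratios and the 10 most abundant ends. The highest group is near flat below 15% until load 12, where it reaches 63.5% to 77.8%. The lowest group peaks at load 7.5 or 4.5, and the abundant ends follow no common shape.

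The lighter fractions, which took no part in the ratio, separated the same ends. Over the loads 0, 1, 2.5 and 4.5 alone, ends at least 2-fold higher at load 12 had a mean load of 2.5 (median over ends, quartiles 2.27 to 2.72). Ends at least 2-fold lower had 3.25 (3.01 to 3.47), and the rest 2.85 (2.59 to 3.08). Within these lighter fractions the heaviest-rich ends thus lay towards the top of the gradient: 12.2% of their lighter reads were at load 0 and 28.3% at load 4.5, against 5.60% and 52.3% for ends at least 2-fold lower. With library totals the levels moved and the order did not: 28.9% and 20.1% against 15.5% and 44.0%.

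Sorted the other way, by mean load over the lighter fractions into quintiles, the median log2 ratio was 1.55, 0.98, 0.37, -0.12 and -0.65 from the lowest load to the highest. In the lowest quintile 1509 of 2652 ends (56.9%) were at least 2-fold above the median end and 1.89% at least 2-fold below it, and in the highest 76 of 2651 (2.87%) and 44.5%, against 27.5% and 14.5% over all ends. The medians of the outer quintiles differed by -2.20 log2 (4.59-fold), and by -0.04 in the ratio of control 2 to control 1. Spearman's rho across the 13256 ends was -0.60, and -0.61 with library totals, where the outer quintiles differed by -2.22. This describes ends, which are not replicates and share the libraries of a single gradient.

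**Figure D3:**
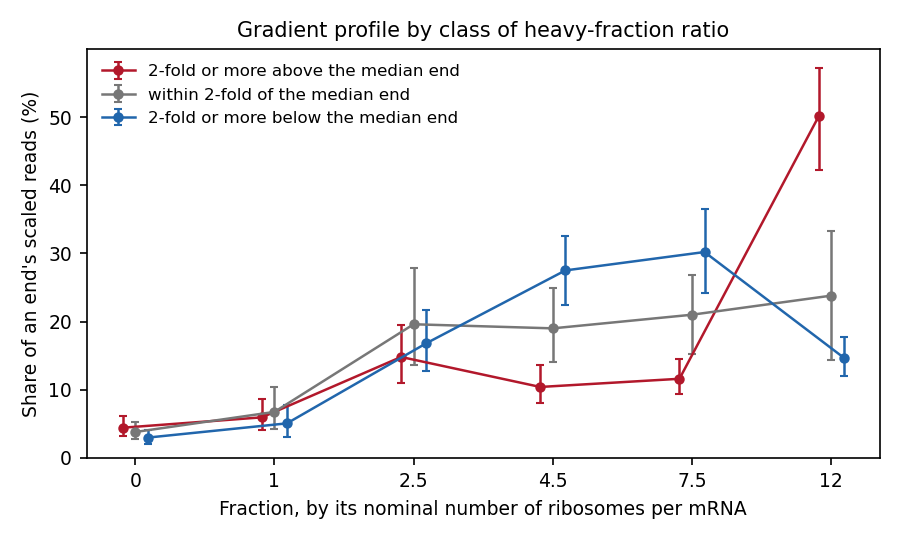
Median share of an end's reads scaled by the header factors (y axis, percent; bars, quartiles over ends) in each of the 6 fractions (x axis, ribosomes per mRNA) for ends at least 2-fold above the median ratio (3642), within 2-fold (7696) and at least 2-fold below (1918). The higher ends hold 10.4% and 11.6% at loads 4.5 and 7.5 and 50.1% at load 12, and the lower ends hold 27.5%, 30.2% and 14.7%.

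The heaviest-rich ends were chosen by loads 12 and 7.5, so their shares and peaks at these loads describe them and test nothing. Over the whole profile these ends held their largest median share at load 12. With header factors they held a median of 50.1% of their reads there, and with library totals 38.2%. At load 4.5 the medians were 10.4% and 9.70% on these scales, and at load 7.5 11.6% and 11.5%. The light end of the profile depended on the scale: with header factors load 2.5 (14.8%) was above load 0 (4.42%), and with library totals it was below (12.1% against 13.8%). Of the 3642 ends, 3561 (97.8%) peaked at load 12 with header factors and 3318 (91.1%) with library totals.

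The ends at least 2-fold lower were chosen for holding less at load 12 than at load 7.5, so none could peak at load 12 on either scale. Of the 1918, 1024 (53.4%) peaked at load 7.5 and 740 (38.6%) at load 4.5 with header factors, and 1117 (58.2%) and 655 (34.2%) with library totals. The ends within 2-fold of the median were mixed, and their commonest peak depended on the scale. With header factors 2927 of 7696 (38.0%) peaked at load 12 and 1431 (18.6%) at load 7.5, and with library totals 1869 (24.3%) and 2159 (28.1%).

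Abundance said little about the ratio. From the least to the most abundant quintile of ends by mean control CPM (quintile medians 5.11, 12, 24.0, 48.4 and 142 CPM), the median log2 ratio was 0.27, 0.35, 0.31, 0.26 and 0.20. The outer quintiles differed by -0.07 log2. In the ratio of control 2 to control 1 they differed by -0.20. The controls also set the quintiles, so that value is no separate measure of the spread between libraries. Spearman's rho across ends was 0.02. Both tails were present at every abundance: from the least to the most abundant quintile, 24.1%, 25.5%, 28.2%, 30.1% and 29.5% of ends were at least 2-fold higher, and 16.3%, 13%, 12.9%, 13.8% and 16.3% at least 2-fold lower. The counting interval narrowed from 0.51 to 0.11 to either side over these quintiles, while the SD of the ratio was 1.12 in the lowest and 1.27 in the highest.

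The size and order of that small difference rested on the settings. With at least 1000 reads over the pair of fractions (4097 ends), the most abundant quintile was 0.19 log2 above the least abundant. Without control 1 the difference was -0.03 and without control 2 it was -0.14. With quintiles cut on the reads of the 4 lighter fractions of the same gradient it was -1.16. Those reads also depend on where an end lies in the gradient, so this value is not one of abundance alone.

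The 10 most abundant ends fell on both sides of the median end, 4 above and 6 below. The most abundant, on chromosome 19 (minus strand, 34316013), had 11717 and 8906 CPM in the controls. It had 59232 reads at load 7.5 and 88113 at load 12 (log2 ratio 0.80, 0.79 to 0.82). An end on chromosome 2 (plus strand, 13504452) had the highest ratio of the 10, from 52201 to 158421 reads (1.83, 1.82 to 1.85), and supplied more reads to the load 12 library than any of the other 9. The lowest was on chromosome 17 (minus strand, 71343637), from 77670 to 31107 reads (-1.09, -1.11 to -1.07).

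The abundant ends differed in how much of their mRNA lay in the heavy fractions, with 3.19% to 28.8% of scaled reads at load 7.5 and 3.91% to 45.8% at load 12. With header factors 2 of the 10 peaked at load 12, 2 at load 4.5, 4 at load 2.5 and 2 at load 1, and with library totals 2, 3, 1 and 2, with 2 at load 0. The end on chromosome 3 at 90409962 (plus strand) held 36.0% of its scaled reads at load 2.5, 34.4% at load 4.5 and 8.15% at load 12. Its neighbour at 90418335 had a like profile, with 42.3%, 31.8% and 7.81%, and the log2 ratios were -0.32 and -0.17. On the X chromosome, 163645025 (minus strand) held 36.0% of its scaled reads at load 1, 44.6% at load 2.5 and 3.91% at load 12 (50.5%, 28.3% and 2.29% with library totals), and yet its ratio of 0.29 was that of the median end. The ratio thus ranks ends by their split between the pair of heavy fractions and not by how much of their mRNA is in polysomes. In the authors' deposited table, that end had 2.53 ribosomes per mRNA, and the one on chromosome 19 had 8.20.

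Stability went with the ratio more clearly. Quintiles of the half-life in the authors' deposited table (13167 ends with a value, quintile medians 0.949, 1.90, 2.93, 4.46 and 8.03 h) had median log2 ratios of 0.56, 0.52, 0.34, 0.19 and -0.04, from the shortest-lived ends to the longest-lived. The outer quintiles differed by -0.59 log2 (1.51-fold), while their difference in the ratio of control 2 to control 1, on libraries that the half-lives themselves use, was -0.08. The distributions overlapped: the middle 50% ran from -0.25 to 1.27 for the shortest-lived and from -0.62 to 0.91 for the longest-lived. Spearman's rho across ends was -0.12.

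The upper and lower tails of the ratio followed half-life differently. The share of ends at least 2-fold lower was larger in each longer-lived quintile, with values of 8.96%, 12%, 13.9%, 16.6% and 20.7%. The share at least 2-fold higher was 24.7%, 32.1%, 31.0%, 28.6% and 21.1%, so it was highest at half-lives of 1.42 to 3.61 h and lower at both ends of the scale. The shortest-lived ends had the narrowest spread, with an SD of 0.96 against 1.27 in the quintile of 3.61 to 5.70 h. Half-lives were longer at more abundant ends (rho 0.20), so the comparison was repeated within quintiles of abundance. The longest-lived ends were below the shortest-lived in all 5 of them, by -0.63, -0.61, -0.60, -0.60 and -0.26 log2 from the least to the most abundant.

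In the most abundant quintile the relation had another shape. From the shortest to the longest half-life its medians were 0.22, 0.57, 0.63, 0.32 and -0.03, over 234, 331, 495, 662 and 912 ends, and 39.6% of the ends in its middle half-life quintile were at least 2-fold higher. In the least abundant quintile the medians were 0.57, 0.34, 0.15, 0.19 and -0.07. Whether the shapes differ beyond the spread between libraries was not tested.

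**Figure D4:**
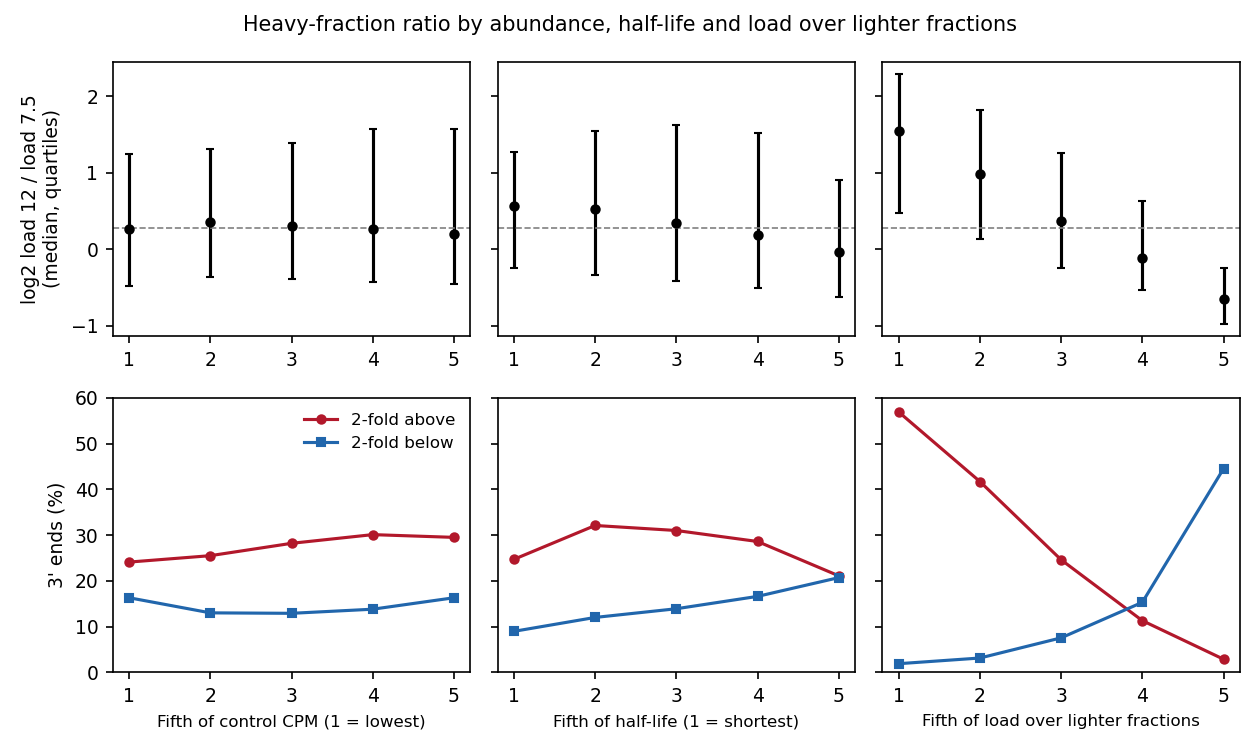
Top row, median log2 ratio of the load 12 to the load 7.5 fraction (bars, quartiles over ends; dashed line, all ends) by quintile of control CPM, of half-life and of mean load over the lighter fractions; bottom row, percent of ends at least 2-fold above or below the median end. Medians stay between 0.20 and 0.35 with abundance, run from 0.56 to -0.04 with half-life and from 1.55 to -0.65 with load over the lighter fractions.

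Locus structure made little difference. Ends with no other listed end on their strand within 2000 nt (3311) had a median log2 ratio of 0.26, with 27.6% at least 2-fold higher and 13.9% at least 2-fold lower. The 9945 ends in loci with several ends had 0.28, 27.4% and 14.7%. By number of ends in the locus, the medians were 0.25 with 2 (3164 ends), 0.34 with 3 (2454) and 0.27 with 4 or more (4327). By position, they were 0.25 for the first end of a locus, 0.28 for middle ends and 0.30 for the last. The range of these medians is 0.25 to 0.34, and ends 2-fold higher made up 27.0% to 28.3% of every class by number, beside 27.5% over all ends. Single minus multiple ends came to -0.01 log2, and its sign turned under other read minimums and locus distances, between -0.02 and 0.05.

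Ends of a shared locus behaved alike. In 2790 loci with 2 or more ends of at least 100 reads, the 2 most abundant of those ends were paired. The upstream one is called proximal and the downstream one distal. Proximal and distal log2 ratios had a Pearson r of 0.95 across loci, which share the 2 libraries, and each varied between loci with an SD of 1.17. Their difference within a locus, which needs no scaling, had a median of 0.00, quartiles of -0.21 and 0.21 and an SD of 0.37. The distal end was the higher of the pair in 1393 loci (49.9%), and in 2519 (90.3%) the pair differed by less than 1.5-fold. The distal end was at least 2-fold higher in 30 loci (1.08%) and at least 2-fold lower in 21 (0.753%).

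These differences were no larger than those between the controls, which were read less deeply. In 1987 pairs with at least 100 control reads per end, the difference between distal and proximal had a median size of 0.19 log2 and an SD of 0.34 in the load 12 to load 7.5 ratio, and of 0.25 and 0.45 in the ratio of control 2 to control 1. It exceeded 2-fold in 29 pairs (1.46%) between the fractions and in 66 (3.32%) between the controls. Where the proximal end was at least 2-fold above the median end (771 loci), the distal end was too in 677 (87.8%), which is 88.3% of the 767 with such a distal end. No locus had a proximal end at least 2-fold above the median and a distal end at least 2-fold below it, nor the reverse.

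**Figure D5:**
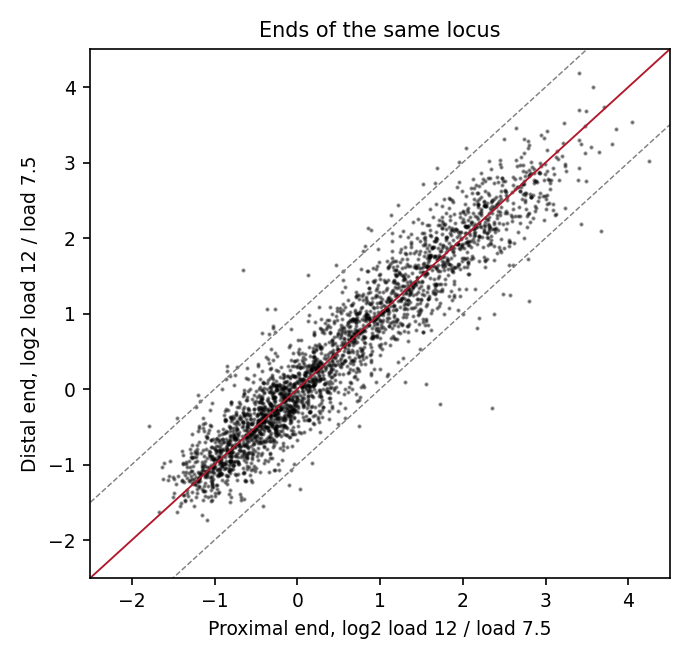
Log2 ratio of the load 12 to the load 7.5 fraction for the proximal (x axis) and distal (y axis) end of 2790 loci, 1 point per locus; solid line, equal ratios; dashed lines, 2-fold apart. Points follow the equal line over the full range (Pearson r 0.95), with 30 loci at least 2-fold above it and 21 at least 2-fold below.

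Pairs under 100 nt apart were more alike than pairs farther apart, in the controls too, and beyond 100 nt the size of the difference was nearly flat. For 940 pairs under 100 nt apart the median size of the difference was 0.14 log2 and 0.532% differed at least 2-fold. For 796 pairs from 100 to under 500 nt apart these were 0.24 and 1.51%, and for 411 pairs from 500 to under 1000 nt apart 0.26 and 1.46%. They were 0.25 and 4.68% for 513 pairs from 1000 to under 2000 nt apart, and 0.25 and 3.08% for 130 pairs at 2000 nt or more. The median difference stayed between -0.01 and 0.02 in every class of distance. On the pairs with at least 100 control reads per end, the median size of the difference between the controls was 0.15, 0.31, 0.31, 0.31 and 0.45 in these classes, against 0.13, 0.21, 0.24, 0.25 and 0.22 between the fractions. The class from 1000 to under 2000 nt, with 513 of all 2790 pairs, held 17 of the 30 loci with a distal end at least 2-fold higher. It also held 7 of the 21 with a distal end at least 2-fold lower.

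Half-life differences within a locus did not go with the ratio. In 246 pairs whose distal half-life in the authors' deposited table was at least 2-fold shorter than the proximal, the median difference in log2 ratio was 0.01 (quartiles -0.28 and 0.28). In 99 pairs with a distal half-life at least 2-fold longer it was 0.00 (-0.26 to 0.28), and in 2408 pairs with half-lives within 2-fold it was 0.00 (-0.20 to 0.20). Spearman's rho between the difference in ratio and the log2 ratio of half-lives was 0.02 over 2753 pairs.

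A few loci did split. Among 1411 pairs with at least 300 reads per end, the largest difference was on chromosome 10 (minus strand, proximal 80364108, distal 80362656, 1452 nt apart). Its proximal end had 334 reads at load 7.5 and 1453 at load 12 (2.35, 2.18 to 2.53), and its distal end 876 and 628 (-0.25, -0.40 to -0.10), 6.06-fold apart. Of the reads at both, the distal end held 64.8%, 82.7%, 92.6%, 93.4%, 72.4% and 30.2% from load 0 to load 12, and 38.0% and 45.3% in the controls. It therefore led in every fraction but the heaviest. The half-lives were 2.42 h for the proximal and 13.5 h for the distal end in the authors' deposited table. Ends of adjacent genes can fall in 1 locus under this definition, and whether they do here was not tested.

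The widest split towards the distal end was on chromosome 4 (plus strand, proximal 106720844, distal 106722297, 1453 nt apart). The proximal end had 260 and 171 reads (-0.37, -0.66 to -0.09) and the distal end 275 and 488 (1.06, 0.84 to 1.28), 2.69-fold apart. The distal share of the pair was 35.2% at load 4.5, 51.4% at load 7.5 and 74.1% at load 12. At load 0 it was 82.9%, but from only 7 proximal and 34 distal reads. It was 43.1% and 42.6% in the controls. On chromosome 2 (minus strand, 27303894 and 27301114, 2780 nt apart) the proximal end had 252 and 119 reads and the distal 409 and 432, 2.23-fold apart. The distal share was highest at load 12 (78.4%) and next at load 0 (74.2%, from 8 proximal and 23 distal reads). This pair also differed between the controls, by 0.45 log2, with distal shares of 61.4% and 68.6%.

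Pairs close together could split too. On chromosome 6 (minus strand), ends 26 nt apart at 131314901 (proximal) and 131314875 (distal) had log2 ratios of 0.75 (0.52 to 0.98) and -0.49 (-0.51 to -0.46), from 261 and 374 reads at the minor proximal end and 32394 and 19671 at the distal. The distal end held 97.9% to 99.5% of the reads at both in every fraction. The same pair differed between the controls by 0.49 in the opposite direction, with the distal share at 94.7% and 96.2%. On the X chromosome (plus strand, 7451981 and 7452408) the proximal end had 107 and 365 reads (2.00, 1.69 to 2.33) and the distal 234 and 398 (1.00, 0.76 to 1.24), a 2.00-fold difference, and the controls differed by 0.04 log2. In that pair both ends lay above the median end.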

How the data were processed

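Read counts per poly(A) site of 12 2P-Seq libraries were taken from the table the authors deposited. The deposited counts are raw, per the file headers, and positions are in mm9. Reads were aligned with Bowtie, per the submitters' processing notes (version not given in the sources used here). 2 further 3P-Seq libraries were not analysed here. Other numbers the authors deposited are a half-life, whose unit the headers do not state and which was read in hours, and ribosomes per mRNA, which equalled the mean of the fraction loads weighted by scaled counts for 30164 of 30164 sites within 1e-06.

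Ends with 100 or more counts over the load 7.5 and load 12 fractions were compared by log2((load 12 + 0.5)/0.852) minus log2(load 7.5 + 0.5). With 1 library per fraction no test was made, and intervals are exact Clopper-Pearson 95% intervals of counts. "At least 2-fold higher" means 1 log2 above the median end. Abundance is mean control CPM by library totals, which ran from 5843403 to 6433503 counts in the controls and from 4045420 to 6111232 after actinomycin D. Over the 6 fractions they ran from 1663346 to 11575417. Quintiles hold equal numbers of ends.

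The ends named were the 10 highest and 10 lowest ratios among ends with 300 counts and an interval beyond 2-fold, the 10 most abundant, and the 5 largest and 5 smallest distal minus proximal differences with 300 counts per end, of which examples are given. The members, groupings and rules were chosen with earlier results of these data known. The gene lists planned could not be used without gene names. Scripts ran in Python 3.11.15 with scipy 1.17.1 and pandas 2.3.3, and TMM factors came from edgeR 4.0.16 in R 4.3.3. The ratio, interval and pair steps were tested on simulated data. Unused sample columns numbered 0.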

Additional observations from a re-analysis of the deposited data

How the results depend on the processing

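The settings without centring and the loci built only from ends with 100 reads were added after seeing the data, as were gradient profiles by library totals. Centred counts were the same with header factors, library totals, TMM and median-of-ratios factors. Centring on the median end removes any factor of a library, so this had to be so and checks nothing. No paired analysis was possible because each fraction has 1 library. A read minimum sets how many ends are compared and a fold threshold how many pass; for other differences the cause was not tested.

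Of ends higher at load 12, 1232 of 4097 compared were counted with at least 1000 reads, and 2141 of 13256 at 3-fold, against 3642 of 13256. Of ends lower, 1194 of 8628 were counted with at least 300 reads and 528 of 4097 with at least 1000, against 1918 of 13256. Over the same 13256 ends, 3955 were lower at 1.5-fold, 186 at 3-fold and 937 with the interval beyond 2-fold. With header factors and no centring, 858 were lower and 4394 higher. Without centring, library totals gave 3354 higher and 2393 lower, and TMM 3577 and 2037. The abundance difference turned from -0.07 to 0.19 log2 with at least 1000 reads, and ran from -0.14 to -0.03 with either control alone. It was -1.16 with the reads of the lighter 4 fractions in place of control CPM, which also depend on where an end lies in the gradient. The stability difference ranged from -0.60 to -0.50 over all settings; the weakest, 8 h over control 1 without control 2, was -0.50, and without control 1 it was -0.58. Single minus multiple ends stayed between -0.02 and 0.05, on both sides of 0, and distal minus proximal between -0.003 and 0.004. Depth limits single ends most at the read minimum, where the interval reached 0.63 to either side.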

Other observations

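The ratio differed somewhat between chromosomes. Over all ends 27.5% were at least 2-fold higher and 14.5% at least 2-fold lower. The X chromosome had the largest share of ends at least 2-fold above the median end, 150 of 410 (36.6%), with 16.6% at least 2-fold lower, a median log2 ratio of 0.49 and quartiles of -0.46 and 1.85. Its ends also had the largest shift of any chromosome in the ratio of control 2 to control 1, a median 0.19 log2 above that of all ends. Chromosome 9 had the highest median, 0.56, with 32.5% of 658 ends at least 2-fold higher and 10.9% at least 2-fold lower. Chromosomes 6 and 8 had the smallest shares of higher ends, both 22.8%, with 15.9% and 15.7% lower and medians of 0.16 and 0.15. Several ends of a locus share a chromosome and a ratio, so ends are not independent counts here, and no test was made.

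The 93 ends with 1000 CPM or more in the controls had a median log2 ratio of 0.11, and 26.9% of them were at least 2-fold above the median end and 24.7% at least 2-fold below it, against 27.5% and 14.5% of all ends. Of the 100 most abundant ends, which include these, 27 were at least 2-fold higher, near the share over all ends, and 25 at least 2-fold lower. Ends without a deposited half-life (89) had a median ratio of 0.25, with 22.5% at least 2-fold higher and 20.2% at least 2-fold lower. Among ends on the plus and the minus strand the medians were 0.24 and 0.31.

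Single ends and ends of larger loci differed in some classes of abundance. In the least abundant quintile the medians were 0.08 for 445 single ends and 0.31 for 2207 ends of larger loci, and from the second to the fifth quintile 0.36 and 0.34, 0.38 and 0.30, 0.43 and 0.19, and 0.11 and 0.24. The order turned more than once, with no steady course along abundance. These values were read after the fact and not tested.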
